A study of Rattus norvegicus with 10 samples.

Results

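The genes described here keep up, divide, fuse and clear the mitochondria of a cell, and their transcripts were counted in rat gastric mucosa after non-steroidal anti-inflammatory drugs (NSAIDs). A fixed list of 8 Ensembl identifiers named Ppargc1a, Tfam, Sirt1, Sod2, Ucp2, Dnm1l, Opa1 and Pink1, each with its chromosome. Of these, 7 were matched on identifier and chromosome among the 32623 genes of the count tables, and the eighth, Sirt1, was not analysed here. The tables hold no gene symbols, so the names come with the list. The 7 features lie on the same chromosome and strand as the RefSeq genes of those names. Their spans are close to those of RefSeq except for Ppargc1a, which spans 91290 nt as counted and 655711 nt in RefSeq.

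Sprague Dawley rats made up all 5 groups, each with 2 libraries of gastric mucosa that the labels give as epithelial cells. In the honokiol plus indomethacin group, 40 mg/kg of honokiol, a polyphenol found in magnolia bark, was injected into the peritoneum, and indomethacin at 48 mg/kg followed by mouth after 30 min. Aspirin rats received 400 mg/kg, diclofenac rats 75 mg/kg and indomethacin rats 48 mg/kg, all by mouth. Control libraries carry no treatment label. The labels give 4 h for the 3 groups with an NSAID alone. The honokiol group carries a time label of 0.5 h, the length of the honokiol lead, and its sampling at 4 h rests on the general protocol. Age, sex, vehicle and whether replicates are separate animals are not stated. The spread between libraries of a group, which each p-value takes as its error, may thus be partly technical. The tissue was sequenced in bulk, where fewer cells of a type and less RNA per cell cannot be told apart. Markers of the labelled cell type could not be looked up without symbols.

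As background, PGC-1α, the product of Ppargc1a, is a transcriptional coactivator that drives mitochondrial biogenesis with nuclear respiratory factors, and Tfam, which packages and transcribes mitochondrial DNA, is one of its best known targets. Mitochondria are kept as a network by fusion, for which the inner membrane needs the GTPase OPA1, and by fission, for which the GTPase DRP1, encoded by Dnm1l, constricts the outer membrane. PINK1 is a kinase that gathers on depolarised mitochondria and marks them for removal by autophagy. SOD2 removes superoxide in the matrix, and UCP2 is a carrier of the inner membrane. Acid-secreting parietal cells are among the cells richest in mitochondria, which makes gastric mucosa a tissue with a high demand for this upkeep.

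Library totals ran from 23892226 to 44977459 counts, and all 7 genes passed the filter on low counts. Features of the mitochondrial chromosome took 31.5% and 35.4% of all counts with honokiol plus indomethacin, 23.8% and 22.8% with aspirin, 21.4% and 21.1% with diclofenac, and 32.4% and 21.7% with indomethacin, against 35.1% and 36.2% in control. Leaving these features out of the fit gave 0 called genes of the 7 in each comparison below. Counts on 7 features of the Y chromosome were 2733 to 4438 in both honokiol plus indomethacin libraries, indomethacin replicate 1 and control replicate 1, and at most 47 in the other 6 libraries. Aspirin and diclofenac thus have no library with Y reads, and values by Y reads are given where they bear on a gene. Levels below are CPM, in which counts are scaled by library total and TMM factor, and between genes they are compared only per kilobase of exon.

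None of the 7 genes passed the test in any of the 5 comparisons with control or between the indomethacin groups. Genes were tested by quasi-likelihood in edgeR, with Benjamini-Hochberg adjustment over all 16346 tested genes and a threshold of 0.05 on the adjusted p. With indomethacin against control 0 of 7 were called, where 0.777% of all tested genes were. With diclofenac against control 0 of 7 were called against 7.87% of all genes, and with aspirin against control 0 of 7 against 17.8%. With honokiol plus indomethacin against indomethacin 0 of 7 were called against 0.343% of all genes, and against control 0 of 7 against 0.0%. DESeq2 also called 0 of the 7 in each of these comparisons. Over all genes it called, in the same order, 381 of 16346, 1830 of 15712, 3246 of 15395, 250 of 16346 and 17 of 15712. At an unadjusted edgeR p under 0.05 there was 1 gene with indomethacin (9.87% of all genes), 1 with diclofenac (26.9%), 2 with aspirin (36.6%), 1 between honokiol plus indomethacin and indomethacin (9.49%) and 0 between honokiol plus indomethacin and control (4.99%). Counts of this kind over 7 genes are near what the whole table gives. The shares of all genes lean on single libraries: of 16346 genes, 127 were called with indomethacin and 2903 with aspirin. Far fewer were called with indomethacin once control replicate 2 was left out, and with aspirin once aspirin replicate 1 was. Those fits tested somewhat more genes.

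With the NSAIDs alone the sizes of the differences were close to those of the table, and with honokiol they were below them. The median absolute log2 fold change of the 7 genes was 0.26 with indomethacin, 0.45 with diclofenac and 0.45 with aspirin, beside 0.26, 0.42 and 0.52 over all tested genes. For honokiol plus indomethacin it was 0.12 against indomethacin and 0.15 against control, beside 0.25 and 0.25 over all genes. The median log2 fold change of the 7 was -0.11 with indomethacin, -0.21 with diclofenac and -0.43 with aspirin, where the medians of all genes were -0.02, -0.01 and -0.00112. These 3 comparisons share the control libraries. The gene farthest out was Ppargc1a with indomethacin, whose log2 fold change lay at the 2.47th percentile of all genes.

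**Figure D1:**
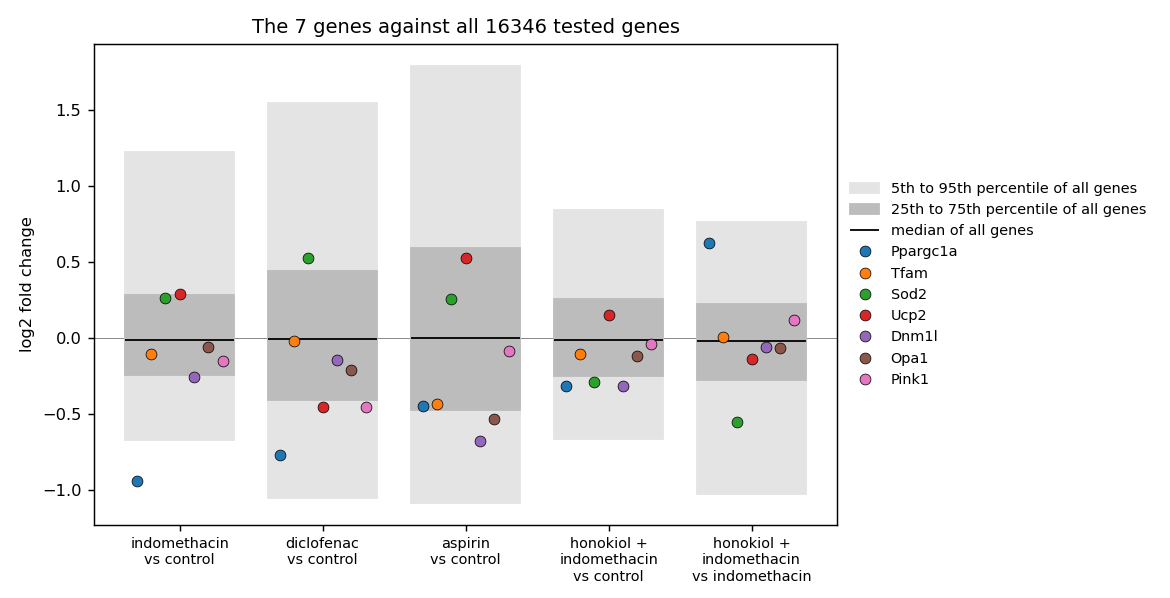
Log2 fold change (vertical axis) of the 7 genes, as coloured points, in 5 comparisons (horizontal axis), over the 5th to 95th percentile (light band), 25th to 75th percentile (dark band) and median (line) of all 16346 tested genes. Ppargc1a with indomethacin, at -0.94, is the only point outside a light band, and the bands are widest with aspirin.

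Ppargc1a, the coactivator at the head of the biogenesis programme, was the scarcest of the 7 per kilobase. Ppargc1a (ENSRNOG00000004473, chromosome 14 from 63095720 to 63187009, plus strand, 13 distinct exons over 2737 nt, in the coordinates of the files, whose build the sources used here do not state) had 124 to 209 counts per library. Counting error alone is thus up to 8.98% of a value. The gene averaged 1.79 CPM per kilobase over the 10 libraries, the 40.3rd percentile of tested genes. The promoter window below, 250 bases before to 50 after the annotated start, is RefSeq's for GRCr8 at chr14:63634058-63634357 on the plus strand. It is shown because Ppargc1a had the widest difference from control, and because the cyclic AMP response element (CRE) through which CREB is known to switch this gene on lies in it, in capitals, from position -181 relative to the start.
Ppargc1a: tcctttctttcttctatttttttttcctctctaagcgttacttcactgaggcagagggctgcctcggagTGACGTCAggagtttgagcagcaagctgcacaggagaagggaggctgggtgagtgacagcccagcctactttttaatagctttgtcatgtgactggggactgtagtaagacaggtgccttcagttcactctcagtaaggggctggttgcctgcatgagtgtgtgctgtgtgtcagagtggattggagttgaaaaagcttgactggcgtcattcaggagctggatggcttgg
The full element, TGACGTCA, which reads the same on both strands, is in 1.83% of the 33469 RefSeq rat promoter windows and in 1 of the 7 windows of these genes. The count table has 1 value per gene and does not tell which of the gene's known alternative starts was used. RefSeq's gene is far longer than the counted feature, and whether the window lies at that feature's start was not checked.

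Ppargc1a had 4.57 and 6.21 CPM with honokiol plus indomethacin, 5.37 and 4.47 with aspirin, 4.33 and 3.52 with diclofenac, and 3.46 and 3.52 with indomethacin, against 6.44 and 6.98 in control. All 8 treated libraries lay below both controls on this scale, and the indomethacin pair was the lowest with diclofenac replicate 2 beside it. The share of all tested genes with all 8 below both controls was not computed. In CPM of the library total with no TMM factor, honokiol replicate 2 at 6.13 and aspirin replicate 1 at 6.11 lay above control replicate 1 at 5.73, and in CPM of nuclear counts honokiol replicate 2 at 9.49 lay above control replicate 1 at 8.82. The indomethacin and diclofenac libraries lay below both controls on each of these scales. As a share of the control mean the group means were 80.3%, 73.3%, 58.5% and 52.0% in that order. Its log2 fold change with indomethacin was -0.94 ± 0.23 (SE, 95% interval -1.45 to -0.43, edgeR adjusted p = 0.11). With diclofenac it was -0.77 ± 0.23 (SE, 95% interval -1.28 to -0.27, edgeR adjusted p = 0.062). With aspirin it was -0.45 ± 0.23 (SE, 95% interval -0.96 to 0.06, edgeR adjusted p = 0.18). The unadjusted edgeR p was 0.0018, 0.0062 and 0.076 in these 3 comparisons, so the first 2 intervals leave out 0 although neither passed the adjusted threshold. With no filter on low counts the indomethacin comparison did pass, at -0.92 ± 0.29 (SE, edgeR adjusted p = 0.04).

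With honokiol before indomethacin, Ppargc1a lay at 4.57 and 6.21 CPM, above both indomethacin libraries at 3.46 and 3.52 and below both controls. The log2 difference from indomethacin was 0.62 ± 0.23 (SE, 95% interval 0.11 to 1.14, edgeR adjusted p = 0.44), and that from control was -0.32 ± 0.23 (95% interval -0.82 to 0.19, edgeR adjusted p = 0.83). Without honokiol replicate 2 these differences were 0.39 and -0.54, and without honokiol replicate 1 they were 0.83 and -0.12, none of them called. The honokiol libraries differed from each other 1.36-fold, the indomethacin libraries 1.02-fold and the controls 1.08-fold. The honokiol value thus rests on a wider spread than the groups around it. Among libraries with Y reads, the honokiol pair stood against 3.46 CPM in indomethacin replicate 1 and 6.44 in control replicate 1. Among libraries without them, 3.52 CPM in indomethacin replicate 2 stood against 6.98 in control replicate 2, so the gap between indomethacin and control was as wide in either kind. With a term for Y reads the log2 fold change with indomethacin was again -0.94 (edgeR adjusted p = 0.14). Control and indomethacin each have a library of either kind, so that term could hardly move this value. With it, diclofenac against control was -0.81 and aspirin against control -0.49 (edgeR adjusted p = 0.14 and 0.26). Honokiol plus indomethacin was 0.66 against indomethacin and -0.28 against control (edgeR adjusted p = 0.47 and 0.71).

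**Figure D2:**
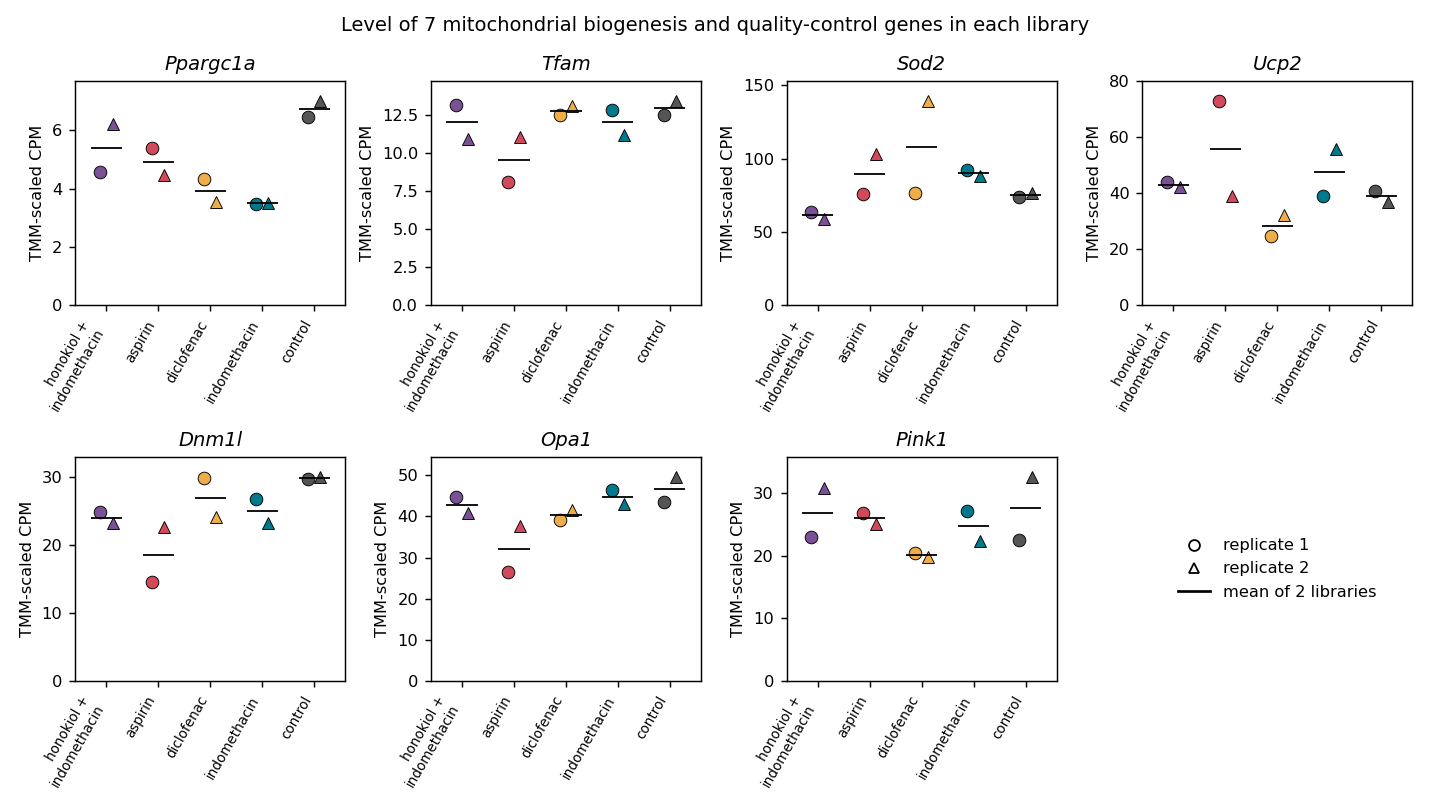
TMM-scaled CPM (vertical axis, from 0) of each gene in the 10 libraries, by group (horizontal axis), with circles for replicate 1, triangles for replicate 2 and a line at the mean of the pair. On this scale, though not without the TMM factor, Ppargc1a is lower in all 8 treated libraries than in the controls, and the Ucp2, Sod2 and Dnm1l pairs of aspirin or diclofenac are spread wide.

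Tfam, the mitochondrial transcription and packaging factor (ENSRNOG00000000613, chromosome 20 from 18594037 to 18606151, plus strand, 7 exons over 1520 nt), overlapped control with indomethacin and diclofenac in TMM-scaled CPM. It had 13.2 and 10.9 CPM with honokiol plus indomethacin, 8.09 and 11.1 with aspirin, 12.5 and 13.1 with diclofenac, and 12.9 and 11.2 with indomethacin, against 12.5 and 13.4 in control. The aspirin pair lay below both controls, and the other groups overlapped them. In CPM of the library total with no TMM factor, aspirin replicate 2 at 11.8 lay above control replicate 1 at 11.1. In CPM of nuclear counts, with no TMM factor, Tfam had 15.6 and 16.7 with diclofenac and 15.6 and 16.0 with indomethacin, against 17.1 and 19.5 in control, so these pairs then lay below both controls. On the log2 scale Tfam differed from control by -0.02 ± 0.20 with diclofenac (SE, 95% interval -0.47 to 0.43, edgeR adjusted p = 0.96) and -0.11 ± 0.20 with indomethacin (95% interval -0.56 to 0.34, edgeR adjusted p = 0.9). These intervals leave out a change of 1 log2 unit in either direction. With aspirin it was -0.43 ± 0.21 (95% interval -0.88 to 0.02, edgeR adjusted p = 0.15), running from -0.69 without aspirin replicate 2 to -0.23 without replicate 1. Between honokiol plus indomethacin and indomethacin it was 0.01 ± 0.21 (95% interval -0.44 to 0.45, edgeR adjusted p = 1).

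Fission and fusion are represented by Dnm1l and Opa1, both on chromosome 11. Dnm1l (ENSRNOG00000001813, 88830957 to 88880198, plus strand, 25 distinct exons over 2639 nt) encodes the fission GTPase. It had 24.8 and 23.2 CPM with honokiol plus indomethacin, 14.5 and 22.6 with aspirin, 29.8 and 24.1 with diclofenac, and 26.7 and 23.2 with indomethacin, against 29.7 and 30.0 in control. The aspirin, indomethacin and honokiol pairs lay below the controls, which differed from each other only 1.01-fold, while diclofenac replicate 1 lay between them. In CPM of the library total with no TMM factor, honokiol replicate 1 at 27.3 lay between the controls at 26.4 and 27.9. Its log2 fold change with aspirin was -0.68 ± 0.23 (SE, 95% interval -1.17 to -0.19, edgeR adjusted p = 0.057), the nearest of the 7 genes to the threshold in that comparison. It was -0.26 ± 0.22 with indomethacin, -0.15 ± 0.22 with diclofenac and -0.31 ± 0.23 with honokiol plus indomethacin (edgeR adjusted p = 0.78, 0.72 and 0.83). The value with indomethacin was -0.16 without indomethacin replicate 2, and that with diclofenac was -0.27 without diclofenac replicate 1 and -0.0036 without replicate 2.

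Opa1 (ENSRNOG00000001717, 74720254 to 74793803, minus strand, 32 distinct exons over 3243 nt), the inner membrane fusion GTPase, had 44.7 and 40.9 CPM with honokiol plus indomethacin, 26.6 and 37.6 with aspirin, 39.0 and 41.5 with diclofenac, and 46.3 and 43.1 with indomethacin, against 43.5 and 49.5 in control. The aspirin and diclofenac pairs lay below both controls, and also did in CPM of nuclear counts. In CPM of the library total, aspirin replicate 2 at 40.2 and diclofenac replicate 2 at 41.7 lay above control replicate 1 at 38.7. Its log2 fold change was -0.54 ± 0.21 with aspirin (SE, 95% interval -0.99 to -0.08, edgeR adjusted p = 0.087) and -0.21 ± 0.21 with diclofenac (edgeR adjusted p = 0.55), and that with diclofenac was -0.09 without control replicate 2 and -0.14 without diclofenac replicate 1. With indomethacin it was -0.06 ± 0.21 (95% interval -0.51 to 0.39, edgeR adjusted p = 0.95).

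The aspirin values of these genes differ between its libraries. Aspirin replicate 1, the library with the lowest total, had 62.5% of the control mean for Tfam, 48.8% for Dnm1l and 57.2% for Opa1, and replicate 2 had 85.4%, 75.8% and 80.7%. Of the 10 libraries, replicate 1 was the lowest for each of the 3 genes. Replicate 2 was the next lowest for Dnm1l and Opa1 in TMM-scaled CPM, but not without the TMM factor. Without aspirin replicate 2 the edgeR test called Dnm1l at a log2 fold change of -1.04 and Opa1 at -0.81 (adjusted p = 0.015 and 0.028). Without replicate 1 the values were -0.40 and -0.31, and neither was called. With a term for Y reads the values from all libraries were -0.63 and -0.56 (edgeR adjusted p = 0.15 and 0.16). The part that depth plays in these values was not tested.

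**Figure D3:**
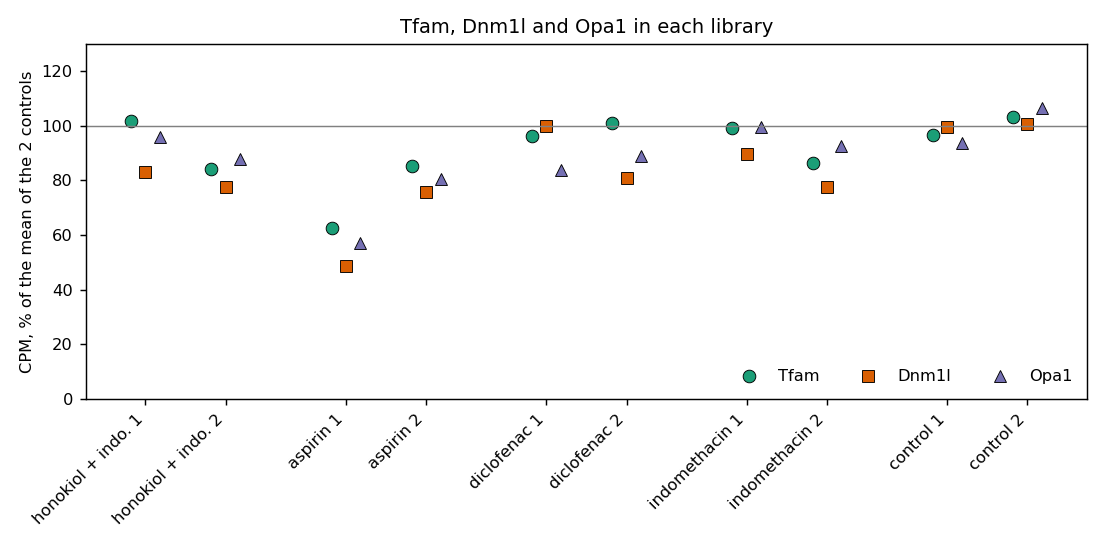
CPM of Tfam (circles), Dnm1l (squares) and Opa1 (triangles) in each library (horizontal axis) as a percentage of the mean of the 2 controls (vertical axis, from 0). All 3 genes are lowest in aspirin replicate 1, at 62.5%, 48.8% and 57.2%.

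Among the 7 genes the most alike across all 10 libraries were Tfam, Opa1 and Dnm1l. Once aspirin was left out this held only for Tfam with Opa1, and only by rank. Over the 10 libraries, which fall into 5 groups and are not independent draws, Pearson's r of log2 CPM was 0.91 for Tfam and Opa1, 0.91 for Tfam and Dnm1l and 0.86 for Dnm1l and Opa1. Spearman's rho was 0.83, 0.76 and 0.70. Over the 8 libraries left without aspirin r was 0.49, 0.55 and 0.27 and rho was 0.71, 0.55 and 0.40, so r was lower for all 3 pairs while rho stayed closest to its first value for Tfam and Opa1. Over the same 8 libraries r was higher than for any of these pairs for Opa1 with Pink1, at 0.60, and Ppargc1a with Pink1, at 0.58. Their rho was 0.60 and 0.48. Over all 10 libraries Ppargc1a had an r of -0.13 with Tfam and -0.64 with Sod2. These are descriptions with no test.

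The promoters of Tfam and Opa1 are shown because their products carry out the steps that PGC-1α and its partners are known to control. These genes also ran most alike over all 10 libraries. Capitals mark the core of the GABP site, CCGGAAG, in Tfam, and the site of nuclear respiratory factor 1 in Opa1, searched as GCGC, then A and any base, then GCGC. Both motifs were looked for on both strands. Both windows are from RefSeq GRCr8, Tfam at chr20:17355123-17355422 on the plus strand and Opa1 at chr11:84689851-84690150 on the minus strand.
Tfam: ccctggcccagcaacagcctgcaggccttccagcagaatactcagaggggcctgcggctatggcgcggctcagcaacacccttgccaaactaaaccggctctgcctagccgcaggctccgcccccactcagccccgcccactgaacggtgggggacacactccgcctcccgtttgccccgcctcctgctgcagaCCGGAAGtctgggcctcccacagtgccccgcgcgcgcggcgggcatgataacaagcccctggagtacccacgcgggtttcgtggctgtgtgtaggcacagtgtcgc
Opa1: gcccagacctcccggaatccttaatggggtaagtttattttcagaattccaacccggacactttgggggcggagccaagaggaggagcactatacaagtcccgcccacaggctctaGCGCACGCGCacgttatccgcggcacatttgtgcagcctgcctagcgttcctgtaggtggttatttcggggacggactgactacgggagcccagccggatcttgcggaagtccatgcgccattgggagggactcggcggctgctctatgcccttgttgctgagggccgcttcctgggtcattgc
In Tfam the GABP core begins at position -56 from the start and is in 8.75% of all windows. In Opa1 the nuclear respiratory factor 1 site begins at position -134 and is in 4.25% of all windows. The windows of Dnm1l, Sod2 and Ucp2 held none of the 4 motifs searched, which were these 3 and AAGGTCA, the core bound by estrogen-related receptors, found in 4.61% of all windows and in 0 of the 7. A match of letters is a description of the window and does not show binding.

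Within a library, the ratio of Opa1 to Dnm1l does not depend on scaling. Per kilobase of exon it was 1.47 and 1.44 with honokiol plus indomethacin, 1.49 and 1.35 with aspirin, 1.07 and 1.40 with diclofenac, and 1.41 and 1.51 with indomethacin, against 1.20 and 1.35 in control. The honokiol, aspirin and indomethacin libraries lay above both controls, aspirin replicate 2 only just, and the diclofenac libraries lay one below and one above them. No test was made of this ratio.

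Sod2 and Ucp2, which bear on oxidants in the matrix and on the inner membrane gradient, were the most abundant of the 7. Averaged over the 10 libraries, Sod2 had 41.1 CPM per kilobase and Ucp2 26.5, followed by Opa1 with 12.7, Pink1 with 10.4, Dnm1l with 9.41, Tfam with 7.81 and Ppargc1a with 1.79. Sod2 stood at the 95.9th percentile of tested genes. In all 5 groups Sod2 had the highest mean per kilobase, Ucp2 the next and Ppargc1a the lowest, though with aspirin Sod2 at 43.4 ± 9.20 and Ucp2 at 34.6 ± 14.8 lay within their spread (SD, n = 2). Opa1 came after Ucp2 except with aspirin, where Pink1 at 10.8 ± 0.489 and Opa1 at 9.89 ± 2.39 also lay within theirs.

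Sod2 (ENSRNOG00000019048, chromosome 1 from 47914759 to 47921587, minus strand, 5 exons over 2063 nt), the superoxide dismutase of the matrix, had 63.7 and 58.9 CPM with honokiol plus indomethacin, 76.1 and 103 with aspirin, 76.9 and 139 with diclofenac, and 92.0 and 88.1 with indomethacin, against 73.7 and 76.3 in control. In TMM-scaled CPM the honokiol pair was the lowest of all and the indomethacin pair lay above the controls. With no TMM factor the indomethacin pair still did, but honokiol replicate 1 lay above control replicate 1. These 2 libraries had 70.3 and 65.5 in CPM of the library total, and 103 and 101 in CPM of nuclear counts. The diclofenac pair differed 1.81-fold, replicate 1 being next to the controls. The log2 fold change with diclofenac was 0.53 ± 0.27 (SE, 95% interval -0.07 to 1.12, edgeR adjusted p = 0.24), and it was 0.03 without diclofenac replicate 2 and 0.92 without replicate 1. With aspirin and indomethacin it was 0.26 ± 0.27 and 0.26 ± 0.27 (edgeR adjusted p = 0.52 and 0.81), and the aspirin value was 0.01 without aspirin replicate 2 and 0.46 without replicate 1. Honokiol plus indomethacin differed from indomethacin by -0.56 ± 0.27 (95% interval -1.15 to 0.04, edgeR adjusted p = 0.56) and from control by -0.29 ± 0.27 (edgeR adjusted p = 0.84).

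Ppargc1a lay below control and Sod2 lay above it in most libraries with an NSAID alone, aspirin replicate 1 and diclofenac replicate 1 being level with control for Sod2. The ratio of Sod2 to Ppargc1a counts, a measure chosen after their values were seen, was 14 and 9.48 with honokiol plus indomethacin, 14.2 and 23.0 with aspirin, 17.7 and 39.5 with diclofenac, and 26.6 and 25 with indomethacin, against 11.4 and 10.9 in control. All 6 libraries with an NSAID alone were above both controls, and the honokiol pair lay on either side of them. This ratio was not tested.

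Ucp2 (ENSRNOG00000017854, chromosome 1 from 165506361 to 165512744, plus strand, 8 exons over 1614 nt), the inner membrane carrier, had 43.9 and 42.2 CPM with honokiol plus indomethacin, 72.8 and 39.0 with aspirin, 24.7 and 32.2 with diclofenac, and 39.1 and 55.9 with indomethacin, against 40.7 and 37.1 in control. In TMM-scaled CPM the diclofenac pair was the lowest of all. In CPM of the library total with no TMM factor, indomethacin replicate 1 at 32.1 lay just below diclofenac replicate 2 at 32.4. The aspirin pair differed 1.87-fold, the widest gap between replicates for any of the 7 genes. The log2 fold change was -0.45 ± 0.29 with diclofenac (SE, 95% interval -1.08 to 0.18, edgeR adjusted p = 0.34), 0.52 ± 0.29 with aspirin (95% interval -0.11 to 1.15, edgeR adjusted p = 0.21) and 0.29 ± 0.29 with indomethacin (edgeR adjusted p = 0.81). Without aspirin replicate 2 the aspirin value was 0.90 and was called (edgeR adjusted p = 0.036), and without replicate 1 it was 0.00. The value with indomethacin was 0.55 without indomethacin replicate 1 and 0.0077 without replicate 2, and that with diclofenac was -0.24 without diclofenac replicate 1. With honokiol plus indomethacin the log2 difference was -0.14 ± 0.29 from indomethacin and 0.15 ± 0.29 from control (edgeR adjusted p = 0.93 and 0.91).

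Pink1 (ENSRNOG00000015385, chromosome 5 from 156677146 to 156689415, minus strand, 11 distinct exons over 2410 nt), the kinase that labels damaged mitochondria, had 23.0 and 30.8 CPM with honokiol plus indomethacin, 26.8 and 25.2 with aspirin, 20.4 and 19.8 with diclofenac, and 27.2 and 22.4 with indomethacin, against 22.6 and 32.6 in control. The controls themselves differed 1.44-fold, and only the diclofenac pair lay wholly outside them, on the low side, with indomethacin replicate 2 just under the lower control. The log2 fold change was -0.46 ± 0.23 with diclofenac (SE, 95% interval -0.95 to 0.04, edgeR adjusted p = 0.22), -0.15 ± 0.23 with indomethacin and -0.09 ± 0.23 with aspirin (edgeR adjusted p = 0.87 and 0.81). Without control replicate 2 the signs with indomethacin and aspirin turned, to 0.15 and 0.23, and the value with diclofenac was -0.14. With each library left out in turn the diclofenac value ran from -0.66 to -0.14. Among libraries without Y reads, where control and indomethacin have 1 library each, Pink1 was -0.67 with diclofenac, -0.51 with indomethacin and -0.29 with aspirin. A feature of 109 nt inside a Pink1 exon on the same strand held 0 counts in all libraries, and how reads shared by both features were counted is not stated. The window of Pink1, in RefSeq GRCr8 at chr5:155825901-155826200 on the minus strand, is shown as the other one of the 7 that held the nuclear respiratory factor 1 site, in capitals, on the strand opposite to the gene and from position -60.
Pink1: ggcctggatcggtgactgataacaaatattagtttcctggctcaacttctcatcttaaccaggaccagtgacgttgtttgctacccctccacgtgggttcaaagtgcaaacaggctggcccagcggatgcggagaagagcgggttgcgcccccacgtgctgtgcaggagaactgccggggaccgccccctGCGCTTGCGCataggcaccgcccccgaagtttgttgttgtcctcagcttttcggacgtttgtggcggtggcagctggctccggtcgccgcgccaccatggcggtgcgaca

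**Figure D4:**
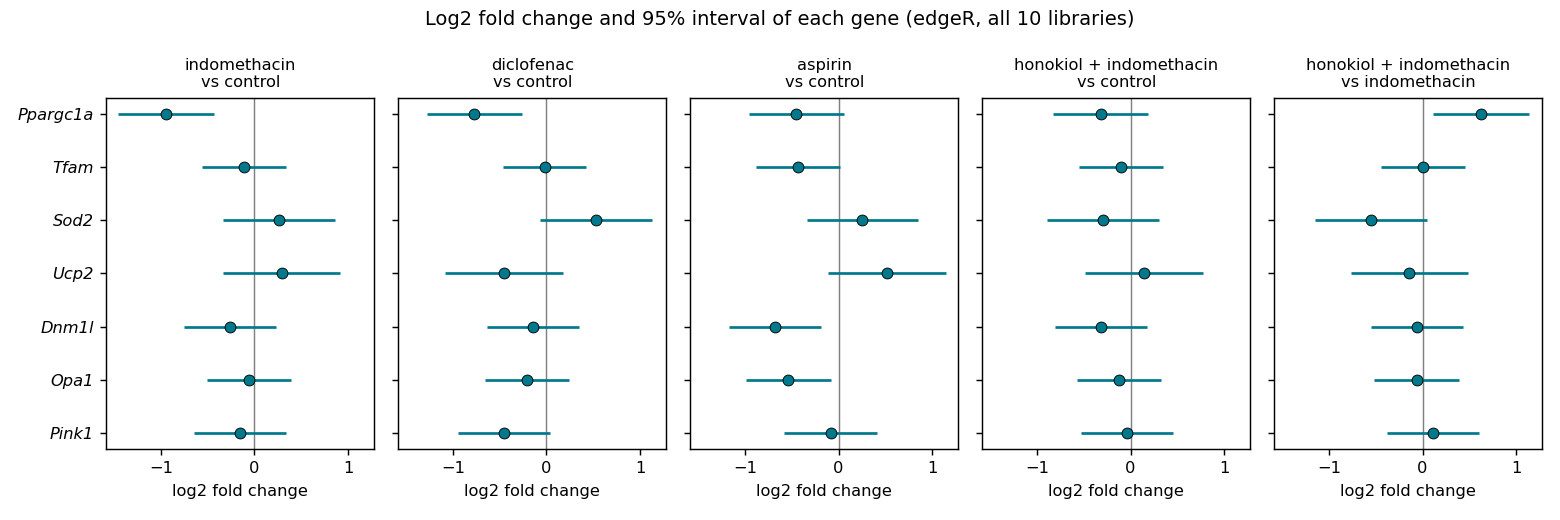
Log2 fold change (points, horizontal axis) with its 95% interval (bars) for each gene, by comparison, from the edgeR fit of all 10 libraries. Intervals that leave out 0 belong to Ppargc1a with indomethacin, with diclofenac and between honokiol plus indomethacin and indomethacin, and to Dnm1l and Opa1 with aspirin, and none of these passed the adjusted threshold.

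In TMM-scaled CPM the libraries of a group stood apart from those of control for some genes without passing the test. With indomethacin 3 of 7 genes did not overlap control (38.2% of all tested genes), Ppargc1a and Dnm1l below it (18.2% of all) and Sod2 above it (20.1%). With diclofenac 5 of 7 did not (55.4% of all genes), Ppargc1a, Ucp2, Opa1 and Pink1 below (28.3%) and Sod2 above (27.0%). With aspirin 4 of 7 did not (60.6% of all genes), Ppargc1a, Tfam, Dnm1l and Opa1, all below, where 30.2% of all genes lay below and 30.4% above. Between honokiol plus indomethacin and indomethacin the count was 2 of 7 (45.3% of all genes), Ppargc1a above (21.7%) and Sod2 below (23.6%). Between honokiol plus indomethacin and control it was 4 of 7 (37.7% of all genes), Ppargc1a, Sod2 and Dnm1l below (19.4%) and Ucp2 above (18.3%). With 2 libraries a group these shares are common across the table, and the counts of the 7 genes are read only beside them.

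The NSAIDs were given at different doses, and their direct comparison holds for those doses only. In structure, aspirin is an acetylated salicylate, while the other two are derivatives of aryl-substituted acetic acid. Over 3 pairs of drugs 0 of 7 genes were called by edgeR or by DESeq2. Of all genes, edgeR called 0.0184% for diclofenac against indomethacin, 0.0184% for aspirin against indomethacin and 0.0% for aspirin against diclofenac. In that order DESeq2 called 165 of 15712 genes, 469 of 14127 and 7 of 16346. At an unadjusted edgeR p under 0.05 there were 1 (11.9% of all genes), 1 (20.1%) and 2 (5.21%) of the 7. Libraries did not overlap for 4 of 7 (48.6% of all genes), 4 of 7 (54.5%) and 6 of 7 (37.3%). The widest difference was in Ucp2, with 72.8 and 39.0 CPM after aspirin against 24.7 and 32.2 after diclofenac, a log2 difference of 0.97 ± 0.29 (SE, 95% interval 0.34 to 1.61, edgeR adjusted p = 0.78), which was called with no filter on low counts (0.95, edgeR adjusted p = 0.043) and was 0.45 without aspirin replicate 1. For Ppargc1a, diclofenac differed from indomethacin by 0.17 ± 0.23 (95% interval -0.34 to 0.68) and aspirin from indomethacin by 0.49 ± 0.23 (95% interval -0.02 to 1.01, edgeR adjusted p = 0.8 and 0.26). The first of these was 0.03 without diclofenac replicate 1 and 0.31 without replicate 2. A p over the threshold does not show that the drugs acted alike on these genes, since the intervals are wide.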

How the data were processed

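Per the labels' protocols, RNA of gastric mucosa was freed of ribosomal RNA, and stranded libraries were read from both ends. The authors deposited 1 table of raw counts per library, laid out as featureCounts does per the file headers. The submitters' processing notes name HISAT2 2.1.0 and featureCounts, besides bcl2fastq, FastQC 0.11.7, cutadapt 1.16, SAMtools and DESeq2. Neither the build nor the strand setting and the handling of shared reads is stated in these sources, so overlapping or antisense genes may share reads.

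From the counts, CPM with TMM factors and quasi-likelihood tests in edgeR 4.0.16 (R 4.3.3) were computed, with group as the only term, 10 libraries in 1 fit (5 residual degrees of freedom), filterByExpr (minimum count 10, minimum total 15) and robust moderation. The SE is the log2 fold change over the square root of F, and its 95% interval uses the t distribution. DESeq2 1.42.0 was an alternative. The script was tested on simulated data. Other alternatives were RLE factors, no filter, a filter at 1 CPM in 2 libraries, fits of 4 libraries, fits without mitochondrial-chromosome features, a replicate block, a term for Y reads and each library left out. Y reads were summed over 7 features that had 50 or more counts over the libraries but 0 in some library, and a sum above 1000 put a library with those that hold them. A fit on the 6 libraries without Y reads was added after seeing the data. The members, lists and tests were chosen with earlier results of these data known. All members found were to be named, called or not. None of the identifiers matched a symbol in the reference table, so lists of further pathway genes and of cell type markers could not be applied. Intervals cover counting error and replicate spread only as far as 2 libraries a group show it.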

Additional observations from a re-analysis of the deposited data

How the results depend on the processing

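Under 19 alternatives, all but the fit on libraries without Y reads run for the honokiol comparisons too, the number of the 7 genes called stayed at 0 in every comparison, with these exceptions. With no filter on low counts 1 of the 7 was called with indomethacin against control (Ppargc1a), where 834 of 24106 genes were. In that fit 1 was called with aspirin against diclofenac (Ucp2), where 140 of 24106 genes were. Leaving out single libraries gave 0 to 3 called genes with aspirin against control, the 3 being Ucp2, Dnm1l and Opa1 without aspirin replicate 2, and the cause was not tested. Of 765 values of 41 log2 fold changes under the alternatives, 734 kept their sign and their side of the threshold, 5 became called and 26 changed sign, none of these called. Each that changed sign was at most 0.15 in size with all libraries. Tfam with diclofenac was then 0.0136 with no filter, 0.0159 with only the 4 libraries compared and 0.0055 with a term for Y reads. Tfam between honokiol plus indomethacin and indomethacin was -0.0174 with no filter, -0.00174 without mitochondrial-chromosome features and -0.0193 with the Y term, and Pink1 between honokiol plus indomethacin and control was 0.0338 with the Y term.

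With each library left out in turn, Pink1 ran from -0.38 to 0.15 with indomethacin, from -0.29 to 0.23 with aspirin, from -0.27 to 0.26 for honokiol plus indomethacin against control and from -0.11 to 0.31 against indomethacin. Tfam ran from -0.055 to 0.0576 with diclofenac, and for honokiol plus indomethacin from -0.14 to 0.13 against indomethacin and from -0.249 to 0.0393 against control. Opa1 with indomethacin ran from -0.131 to 0.0507, and for honokiol plus indomethacin against indomethacin Ucp2 ran from -0.39 to 0.14 and Dnm1l from -0.159 to 0.0327. Deviations of same-numbered libraries correlated across genes at -0.26 to 0.30 over 10 pairs of groups, and 4 of these were over 0.1: control, indomethacin and honokiol plus indomethacin among themselves (0.13, 0.14 and 0.30) and aspirin with diclofenac (0.22). The labels do not say that the numbers mark a shared animal or batch. With the replicate block 0 of the 7 genes were called in every comparison, and Ppargc1a with indomethacin was -0.94 (edgeR adjusted p = 0.16). Every group holds both replicate numbers, so the block can move the p-value but hardly the log2 fold change. In a left-out fit a lone library is assumed to vary like the other groups. Within the 6 libraries without Y reads, where control and indomethacin have 1 library each, Ppargc1a with indomethacin was -0.96. Calls over the whole table with each NSAID alone against control were then fewer than with all libraries. For diclofenac and aspirin they were also fewer than with any library left out. Depth limits Ppargc1a most, at 124 to 209 counts. Over the whole table the calls with indomethacin, diclofenac, aspirin and honokiol plus indomethacin against indomethacin numbered 127, 1286, 2903 and 56, and they moved by over 1.5 times for some of these with no filter (834, 2650, 4198 and 699), DESeq2 (381, 1830, 3246 and 250), only 4 libraries (262, 527, 1759 and 250) and the Y term (116, 383, 683 and 35). With each library left out in turn they ran from 1 to 200, 319 to 1434, 462 to 3606 and 0 to 118, the lowest being without control replicate 2, control replicate 1, aspirin replicate 1 and honokiol replicate 1.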
